A study of Mus musculus with 2 samples.

Results

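The let-7 genes described here are those whose main mature microRNA comes from a single genomic locus. The 7 genes were taken by symbol from the GENCODE M21 annotation, as Mirlet7g, Mirlet7b, Mirlet7i, Mirlet7d, Mirlet7e, Mir98 and Mir7j, out of 2202 miRNA genes in the tables. MicroRNA sequencing had been done on total RNA of adrenal gland from mice of the inbred strain C57BL/6J, with RNA below 30 nt selected per the labels. The 2 libraries are biological replicates 1 and 2 of 1 group for which no treatment is named, described as wild type (WT) and male in free text, while the sex field reads not collected and age and stage are unknown. Both replicates carry 1 donor record, so it is not shown that 2 animals were used. The p-values here compare 2 libraries against counting noise alone and estimate no spread between replicates. Differences between the libraries may be technical.

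The let-7 miRNAs were first found in Caenorhabditis elegans as timers of larval development, and in mammals the family is large, accumulates as cells differentiate and lowers the output of growth and stem cell genes such as Lin28a, Hmga2 and Myc. Each gene is transcribed into a long primary RNA, from which a hairpin is excised and then cut to a short mature strand. The seed, bases 2 to 8 of that strand, directs most target recognition, so miRNAs that share a seed can pair with the same sites. The RNA-binding proteins LIN28A and LIN28B block let-7 maturation by holding the loop of the hairpin, with a GGAG element as a known contact. The adrenal gland joins a steroid-producing cortex to a catecholamine-producing medulla.

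The mature forms are shown because they decide which reads can be placed at 1 locus. All 7 genes had an entry in the RefSeq table of build GRCm38.p6, and the seed is in capitals.
let-7g-5p: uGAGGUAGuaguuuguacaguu
let-7b-5p: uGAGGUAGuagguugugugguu
let-7i-5p: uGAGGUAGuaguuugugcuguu
let-7d-5p: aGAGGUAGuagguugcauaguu
let-7e-5p: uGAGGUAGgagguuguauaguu
miR-98-5p: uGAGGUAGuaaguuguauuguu
let-7j: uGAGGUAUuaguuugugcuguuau

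The first 6 forms carry the seed GAGGUAG, also held by let-7a, let-7c, let-7f, let-7k and miR-1961. The product of Mir7j, named let-7j and unrelated to the miR-7 family, carries GAGGUAU. In the RefSeq table that seed belongs to 1 other mature form, miR-202-3p, which is known from the gonads.
miR-202-3p: aGAGGUAUagcgcaugggaaga
let-7j and miR-202-3p differ at 14 of the 22 bases that both have, all of them outside bases 2 to 8.

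Each of the 7 mature sequences was found in 1 hairpin among the 2202 GENCODE M21 hairpins. Those of let-7a, let-7c and let-7f were each found in 2. For let-7g, let-7b, let-7i and let-7e, the first 17 bases sufficed to single out the gene. miR-98 needed 11 bases, and let-7d and let-7j were already unique at 10, the shortest length tried. A read of at least 17 bases from the start of a mature form is therefore unique among annotated hairpins, while the rest of the genome was not searched. Some forms are nevertheless close. Positions are counted from 1 at the 5′ end, and the first-named form is given first. let-7i and let-7j are separated within their first 22 bases by G8U alone. let-7b and let-7c are separated by G17A and let-7e and let-7a by G9U. At that last base let-7e differs from every other form compared. The 17 bases it needed therefore point to a further annotated hairpin outside this comparison, in which let-7k was not included. Within the set, let-7g and let-7i come next, 2 substitutions apart, at A17G and A19U. The number of mismatches that the authors' alignment tolerated is not given in the sources used here.

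**Figure D1:**
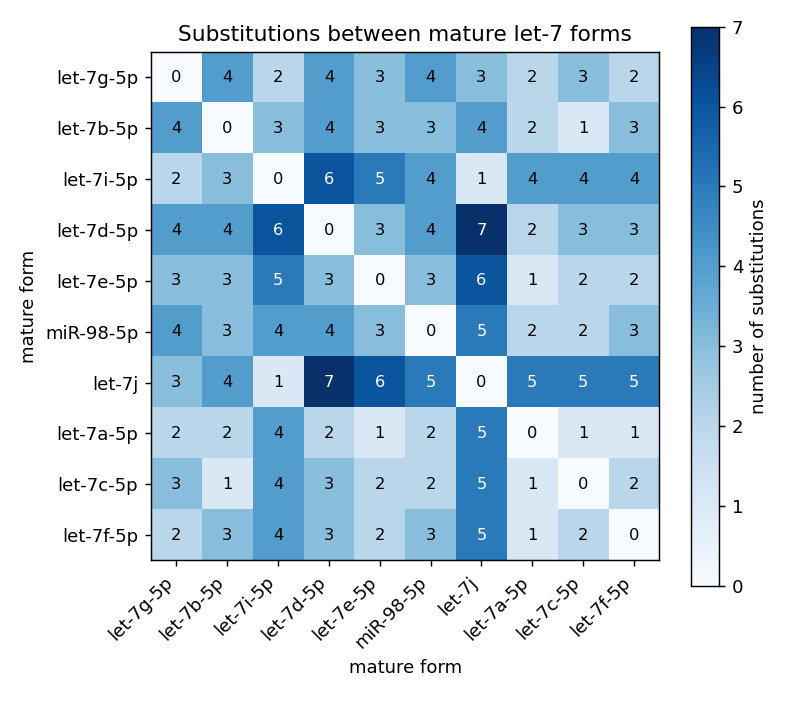
Number of substitutions between each pair of mature forms, counted over the bases that both forms have, with the darkest squares the most different. let-7i-5p and let-7j stand 1 apart, let-7b-5p and let-7c-5p 1 apart, and let-7d-5p and let-7j 7 apart, the largest distance shown.

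The genes lie on 7 chromosomes, given here on mm10. Mirlet7g (ENSMUSG00000065440.1) is at chr9:106178840-106178927 on the plus strand, in an intron of Wdr82, which encodes a subunit of a histone methyltransferase complex. Mirlet7b (ENSMUSG00000065564.1) is at chr15:85707319-85707403 on the plus strand, within an exon of the noncoding transcript Lncppara. Mirlet7i (ENSMUSG00000065406.3) is at chr10:122985640-122985724 on the minus strand, within an exon of the transcribed pseudogene D630033A02Rik. Mirlet7d (ENSMUSG00000065453.1) is at chr13:48536012-48536114 on the minus strand, within an exon of the lincRNA 6720427I07Rik. Mirlet7e (ENSMUSG00000105758.1) is at chr17:17830352-17830444 on the plus strand, in an intron of Spaca6, a gene needed for sperm and egg fusion. Mir98 (ENSMUSG00000065536.2) is at chrX:151913214-151913321 on the plus strand, in an intron of the ubiquitin ligase gene Huwe1. Mir7j (ENSMUSG00000099169.1) is at chr3:140028249-140028370 on the plus strand, and no host gene is annotated there.

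Replicate 1 held 20598186 reads and replicate 2 held 10628898, of which 49.8% and 33.2% could be assigned to a miRNA gene on its own strand. Unmapped reads differed, at 13.8% and 41.4%, while multimapping reads made up 37.8% and 38.8% of mapped reads. The tables count miRNA genes alone, so the tissue could be checked against miRNA markers and not against steroid or catecholamine enzyme genes. All 4 neuroendocrine markers were present at 10 CPM or more, with summed levels of 73420 and 80086 CPM in replicates 1 and 2. Of 6 muscle markers none reached 10 CPM. Both copies of Mir133a (Mir133a-1 and Mir133a-2) and of Mir1a (Mir1a-1 and Mir1a-2) were at 0, but reads that fit both copies entered no gene. The liver marker Mir122 stood at 104 and 97.6 CPM. The summed level of the 4 erythroid markers was 8371 and 1815 CPM in replicates 1 and 2, with none of the 4 at 0.

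Single-locus let-7 genes made up a large share of the adrenal miRNA counts. Together they took 28.7% of assigned counts in replicate 1 and 22.7% in replicate 2, a mean of 25.7% ± 4.20 (SD, n = 2). All 7 were detected at 10 CPM (counts scaled to 1000000 assigned counts) or more in both libraries, as were 267 of the 2202 genes. By mean CPM, 6 of the 7 stood among the top 25. Reads that fit several loci entered no gene, so miRNAs made from several loci are undercounted. The shares and ranks of single-locus genes are therefore partly a property of the counting. The level of a hairpin gene sums both of its arms, which the tables do not separate, and a read stands for 1 small RNA, so levels were compared between genes without a length correction.

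Mirlet7g led, with 1464960 counts (142729 CPM) in replicate 1 and 373148 counts (105838 CPM) in replicate 2. It had the most assigned counts of any miRNA gene in either library. Its share of assigned counts had Wilson 95% intervals from 14.25% to 14.29% and from 10.55% to 10.62%, which do not overlap. These intervals cover counting error only, because reads without molecular identifiers are not independent molecules.

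Mirlet7b followed at 49585 and 50754 CPM, rank 5 in replicate 1 and rank 6 in replicate 2. Mirlet7i had 44571 and 32337 CPM, rank 7 and rank 10. Mirlet7d had 30470 and 23864 CPM, rank 10 and rank 13. Replicate 1 was thus higher for Mirlet7i and Mirlet7d and slightly lower for Mirlet7b.

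Mirlet7e had 10688 and 9676 CPM, at ranks 18 and 19. Mir98 had 8884 and 5007 CPM, at ranks 23 and 33, the widest relative gap between replicates among the 7. Mir7j stood far below the rest, at 17.1 and 11.9 CPM from 176 and 42 counts. Its mean of 14.5 ± 3.70 CPM (SD, n = 2) compares with a median of 228 CPM over the mean levels of the 267 detected genes.

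The order of the 7 was the same in both libraries, and no pair of neighbours in it had overlapping values. The gaps were narrow in some cases. The lower value of Mirlet7i was 32337 CPM and the higher value of Mirlet7d 30470 CPM, and the lower value of Mirlet7e was 9676 CPM against 8884 CPM as the higher value of Mir98. Mirlet7g stood 2.88 times above Mirlet7b in replicate 1 and 2.09 times above it in replicate 2. With 2 values against 2, an exact two-sided permutation test cannot go below p = 0.333. Neighbours are also measured in the same 2 libraries, and pairing them leaves fewer permutations. No pair of neighbours was therefore tested.

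**Figure D2:**
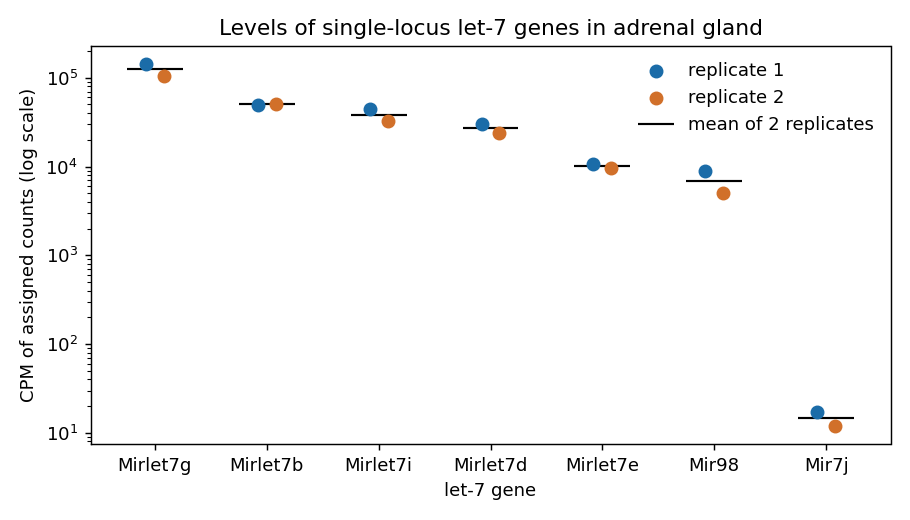
CPM of each gene in replicate 1 and replicate 2 on a log scale, ordered by the mean (black line). Values run from 142729 CPM for Mirlet7g in replicate 1 to 11.9 CPM for Mir7j in replicate 2, and no 2 neighbouring genes overlap.

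Mirlet7g held 49.7% of the counts of the 7 genes in replicate 1 and 46.5% in replicate 2. Relative to Mirlet7g, Mirlet7i stood at 31.2% and 30.6% and Mirlet7d at 21.3% and 22.5%, smaller shifts than those of the next genes. Mirlet7b moved from 34.7% to 48.0% of Mirlet7g, Mirlet7e from 7.49% to 9.14% and Mir98 from 6.22% to 4.73%. The corresponding values of Mir7j were 0.0120% and 0.0113%.

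The 6 genes of the duplicated mature forms let-7a, let-7c and let-7f took 1.17% and 1.07% of assigned counts. The single-locus genes therefore held 96.1% and 95.5% of the family's counts, a mean of 95.8% ± 0.40 (SD, n = 2). This split is a property of the counting as well as of the tissue, since reads that fit 2 loci were set aside as multimapping and the let-7a, let-7c and let-7f sequences each occur at 2. Mir7k, with the seed GAGGUAG, had 15 and 6 counts. The share of let-7 within all adrenal miRNA cannot be read from these tables for the same reason.

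**Figure D3:**
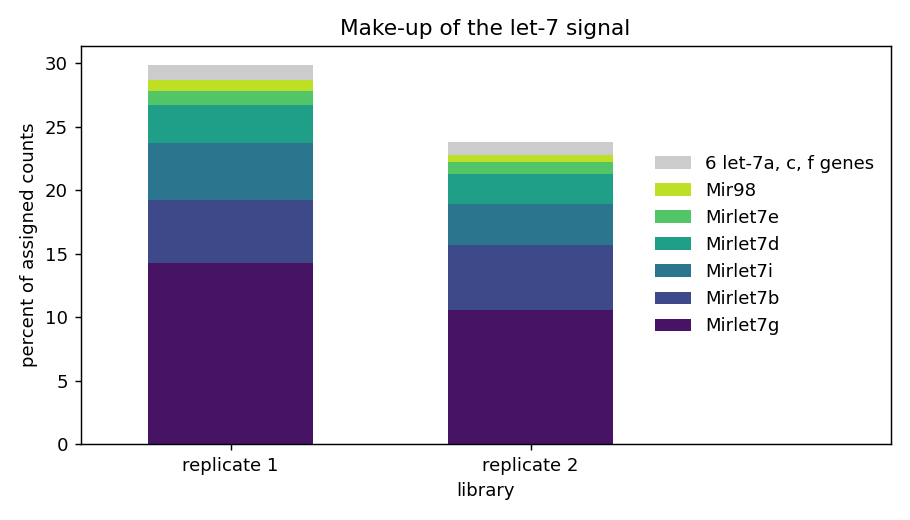
Percent of assigned counts held by each let-7 gene in each library, stacked, with the 6 let-7a, let-7c and let-7f genes in grey. The coloured single-locus genes reach 28.7% in replicate 1 and 22.7% in replicate 2, and the grey part is 1.17% and 1.07%. Mir7j and Mir7k, too low to be seen, are left out.

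The replicates were compared with an exact two-sided binomial test on TMM-scaled library sizes, with Benjamini-Hochberg adjustment over all 443 miRNA genes tested. It compares 2 libraries, not conditions. Of the 7 genes, 6 differed beyond counting noise, 5 higher in replicate 1 and 1 higher in replicate 2. Over all genes tested, 52.8% were called, 31.6% higher in replicate 1 and 21.2% higher in replicate 2. At this depth small differences pass for abundant genes, and of the 31 tested genes that averaged 5000 CPM or more, 30 were called. The 7 genes lay a median of 1.36-fold apart, against 1.36-fold for all 443 genes and 1.16-fold for those 31. The median log2 ratio of replicate 2 over replicate 1 was -0.45 for the 7, -0.17 for all genes tested and 0.03 for those 31.

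Mir98 had the largest ratio of the set, with a log2 ratio of -0.84 and an exact 95% interval from -0.87 to -0.82. It was the sole member more than 1.5-fold apart, a distance that 37.0% of the genes tested exceeded. The log2 ratio was -0.48 for Mirlet7i, with an interval from -0.49 to -0.47, and -0.45 for Mirlet7g, from -0.45 to -0.44. That of Mirlet7d was -0.37, from -0.38 to -0.36. These genes were between 1.29 and 1.40 times higher in replicate 1.

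Mirlet7e was 1.12 times higher in replicate 1, a log2 ratio of -0.16 with an interval from -0.18 to -0.14. The exact test gave it an adjusted p of 5.87e-73. Mirlet7b passed the exact test in the other direction, with an adjusted p of 0.000117, but its replicates differed by 1.01-fold. Mir7j had a log2 ratio of -0.54 with an interval from -1.06 to -0.05, and missed the threshold, with an adjusted p of 0.0561 in the exact test. Its low counts leave an interval that spans the values of all other members except Mirlet7b.

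**Figure D4:**
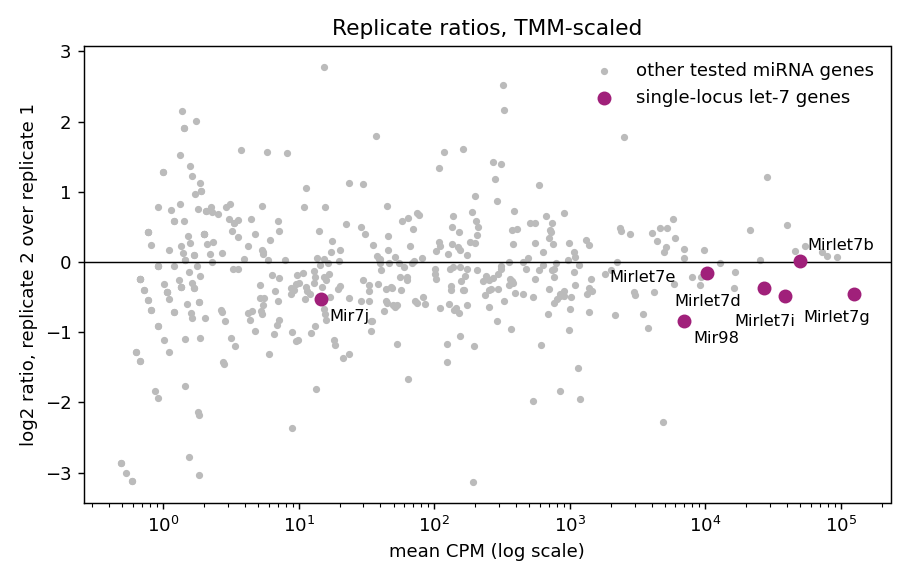
Log2 ratio of replicate 2 over replicate 1 against the mean CPM (log scale) for the 443 tested miRNA genes in grey and the single-locus let-7 genes in purple. Mirlet7b sits at 0.02 and the other 6 lie below 0, down to -0.84 for Mir98.

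The replicate 1 excess of 5 of the 7 genes came with other differences between the libraries. Unmapped reads stood at 13.8% and 41.4%, and the erythroid sum was 4.61 times higher in replicate 1. Mir451a carried that sum, with 8085 and 1685 CPM, while Mir144 had 272 and 119 CPM, Mir486 13.2 and 9.93 CPM and Mir3107 1.27 and 0.851 CPM. Summed levels of the other marker lists were close, at 0.98 times for the 6 leukocyte, 0.92 times for the 4 neuroendocrine and 0.94 times for the 2 endothelial markers. Of the 2 endothelial markers 1, Mir126a, reached 10 CPM in both libraries and carried the sum, with 89916 and 95595 CPM. Single leukocyte and neuroendocrine markers lay on both sides. Log2 ratios of the leukocyte markers ran from -0.69 for Mir155 to 1.57 for Mir223. Mir375 carried the neuroendocrine sum, with 68022 and 76044 CPM, while Mir7b had 4743 and 3557 CPM and Mir7-1 had 479 and 251 CPM. The part that unmapped reads or red blood cells have in the let-7 differences was not tested. In bulk tissue, fewer cells of a type and less RNA per cell cannot be told apart.

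Several members lie in a cluster with other miRNA genes, and their counts were compared with those of these neighbours in each library. In the Spaca6 cluster, Mirlet7e lies 94 bases from Mir99b and 367 bases from Mir125a, all on the plus strand. Mir99b, of the miR-99 and miR-100 family, had 9155 and 10468 CPM, and Mir125a, a relative of the worm gene lin-4, had 4510 and 6996 CPM. Both were higher in replicate 2, with log2 ratios of 0.18 and 0.62, while Mirlet7e was higher in replicate 1. The ratio of Mirlet7e to Mir125a counts was 2.37 in replicate 1 and 1.38 in replicate 2, a log2 change of -0.78 with a 95% counting interval from -0.81 to -0.75. Against Mir99b the ratio was 1.17 and 0.924, a log2 change of -0.34 from -0.36 to -0.31.

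In the Huwe1 pair both genes were higher in replicate 1, by differing amounts. Mirlet7f-2 lies 785 bases from Mir98 and had 8457 and 7386 CPM, a log2 ratio of -0.21 against -0.84 for Mir98. Mir98 counts were 1.05 times those of Mirlet7f-2 in replicate 1 and 0.678 times in replicate 2, a log2 change of -0.63 with a counting interval from -0.66 to -0.60. The level of Mirlet7f-2 rests on reads that could be placed at 1 locus, while its let-7f strand is duplicated. Which arm those reads came from is not shown.

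On chromosome 13, Mirlet7d lies 1714 bases from Mirlet7f-1 and 2064 bases from Mirlet7a-1. It held 58.5 and 62.0 times the counts of Mirlet7a-1, a log2 change of 0.08 with an interval that includes 0 and reaches 0.17. Against Mirlet7f-1 it held 96.0 and 80.1 times the counts, a log2 change of -0.26 with an interval from -0.36 to -0.16. On chromosome 15, Mirlet7b lies 621 bases from Mirlet7c-2 and held 32.3 and 38.8 times its counts, a log2 change of 0.26 with an interval from 0.22 to 0.31. The neighbours' let-7a, let-7c and let-7f strands were mostly out of reach of unique counting, so these multiples are upper values for the excess of Mirlet7d and Mirlet7b. Mirlet7g, Mirlet7i and Mir7j have no annotated miRNA gene within 10000 bases.

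**Figure D5:**
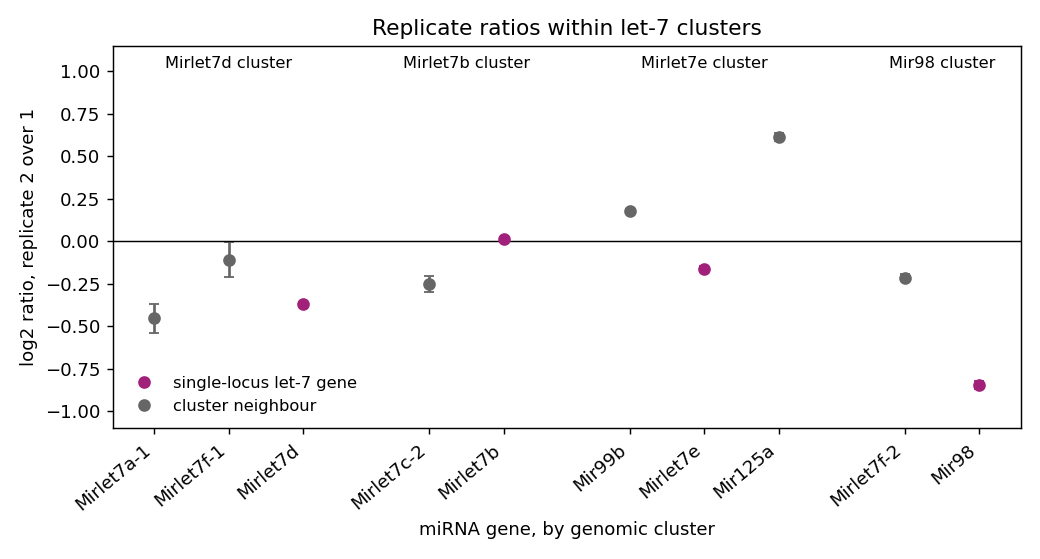
Log2 ratio of replicate 2 over replicate 1 for the single-locus let-7 genes (purple) and their cluster neighbours (grey), with exact 95% binomial intervals, which are often smaller than the points. In the Mirlet7e cluster Mir125a lies at 0.62 and Mirlet7e at -0.16, and in the Mir98 cluster Mirlet7f-2 lies at -0.21 and Mir98 at -0.84.

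The related genes gave this background. Of the 6 miR-99, miR-100 and miR-125 genes that accompany let-7 clusters (Mir99a, Mir99b, Mir100, Mir125a, Mir125b-1 and Mir125b-2), 5 were higher in replicate 2, none was higher in replicate 1 and 1, Mir125b-2, did not pass. Over all 443 genes tested 21.2% were higher in replicate 2 and 31.6% in replicate 1, and of the 31 that averaged 5000 CPM or more, 17 were higher in replicate 2 and 13 in replicate 1. The median log2 ratio of those 6 genes was 0.38, against -0.45 for the 7 let-7 genes, -0.17 for all genes tested and 0.03 for those 31. Mir99a stood at 32560 and 47509 CPM. Of the 6 duplicated let-7 genes, 3 were higher in replicate 1, 2 (Mirlet7a-2 and Mirlet7c-1) were higher in replicate 2 and 1, Mirlet7f-1, did not pass. Mir202, which shares the seed of Mir7j, had 97.7 and 30.9 CPM, 3.20 times higher in replicate 1.

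Mirlet7e overlaps an annotated miRNA gene on the opposite strand, Gm25927, which had 0 counts in both libraries. The count without regard to strand was 0 for Mirlet7e, and its 109700 and 34113 sense counts stand as opposite-strand counts at Gm25927. The level of Mirlet7e is thus visible in the stranded column alone. For the other 6 genes, the counts without regard to strand equalled the sense counts to within 20 counts.

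Mir7j was compared with Mirlet7i because their mature forms are 1 substitution apart. Mir7j counts amounted to 0.0385% of those of Mirlet7i in replicate 1, with a Wilson 95% interval from 0.0332% to 0.0446%, and to 0.0368% in replicate 2, from 0.0273% to 0.0498%. The difference between these ratios was within counting error, with a log2 change of -0.06 and an interval from -0.58 to 0.43. Whether reads of Mirlet7i contribute to the count of Mir7j was not tested, since the tables hold no read sequences.

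The stretch between the mature strands of the hairpin is shown because LIN28 proteins bind it. It was cut from the RefSeq hairpin, from the base after the 5p form to the base before the 3p form, and the letters GGAG are in capitals.
Mirlet7g: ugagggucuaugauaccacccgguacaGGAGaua
Mirlet7i: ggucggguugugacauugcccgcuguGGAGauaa
Mirlet7d: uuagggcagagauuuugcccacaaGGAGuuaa
Mirlet7e: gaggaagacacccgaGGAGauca
Mirlet7b: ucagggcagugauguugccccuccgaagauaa
Of these 5 genes, 4 hold GGAG in this stretch, 3 or 4 bases before the 3p form, and Mirlet7b does not. Among all 644 hairpins with both arms annotated, 8.07% hold GGAG between the arms, on the strand of the RNA. A match describes letters and does not show binding, and no LIN28 measurement is part of the tables.

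The hairpin of Mir7j has no 3p form in the table, and is shown whole with its mature form in capitals.
Mir7j: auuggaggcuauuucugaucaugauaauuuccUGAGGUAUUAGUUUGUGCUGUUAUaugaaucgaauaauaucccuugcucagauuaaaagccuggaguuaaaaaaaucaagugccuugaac
The mature form starts at base 33 of this 122-base hairpin. In the hairpins of these 5 genes, of 85 to 103 bases, it starts between base 6 and base 16.

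Outside the let-7 family and its cluster partners, the nearest gene to each member was taken as the smallest Euclidean distance in log2(CPM + 1) over the 2 libraries. For Mirlet7d it was Mir10b, of the Hoxd region, at 29421 and 23835 CPM, a distance of 0.05. For Mirlet7e it was Mir379, of the imprinted Dlk1-Dio3 region, at 10514 and 9287 CPM and a distance of 0.06. Mir6516 lay 0.13 from Mir7j and Mir23a 0.20 from Mirlet7b. The others had no close match, with Mir151 at 0.47 from Mir98, Mir23b at 0.58 from Mirlet7i and Mir126a at 0.68 from Mirlet7g. With 2 libraries this likeness describes a level and a ratio.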

How the data were processed

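Small RNA of mouse adrenal gland had been sequenced in 2 libraries of 1 group. The authors deposited raw read counts per miRNA gene, with mm10 and GENCODE M21 named in the description files beside the tables. The aligner and the counting tool were not given in the sources used here. In each table there are 4 summary lines and 3 count columns without a header, read from their values as counts without regard to strand, on the strand of the gene and on the opposite strand. The second was used, and CPM were computed over all miRNA genes. The summary lines entered no total, and the no-feature line held 7.09% and 7.41% of uniquely mapped reads.

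All 2202 identifiers matched GENCODE M21. Genes with 10 or more counts in the 2 replicates together were compared by an exact binomial test (scipy 1.17.1) with TMM factors of 0.994 and 1.006 from edgeR 4.0.16, and Benjamini-Hochberg adjustment at 0.05. A group of 2 leaves no degrees of freedom for a quasi-likelihood contrast. Ratios carry exact binomial 95% intervals, and changes of a ratio between 2 genes an interval from the 4 counts on the log scale. The medians of ratios and the plotted ratios add 0.5 counts. In counts simulated for the real genes with Poisson counting noise alone, the test called 62.2% of 98 genes with a 1.5-fold change. It called 1.70% of the 236 that had none. The simulation held no spread between libraries, so it does not give the rate of false calls in these data. A 0 count allows up to 3 counts, or 0.292 and 0.851 CPM.

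Named were all 7 members, the other let-7 genes, their cluster partners, Mir202 and the nearest gene to each member. The hairpin of 1 member is not reported here. The members and lists were chosen with earlier results of these data known. Alternatives were other scalings, filters, denominators and the unstranded column.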

Additional observations from a re-analysis of the deposited data

Results flagged for a closer look

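Opposite-strand counts enter no comparison above. They were looked at where no miRNA gene is annotated opposite and where 1 replicate held more than the 3 counts that a count of 0 allows. Mirlet7b had 20 opposite-strand counts in replicate 1 and 0 in replicate 2, or 39.3 for every 1000000 sense counts in replicate 1. The limit for replicate 2 is 16.8 on that scale. Mir98 had 5 in replicate 1 and 0 in replicate 2, or 54.8 for every 1000000, with a limit of 169.9 for replicate 2. With 1 group of 2 replicates, samples were not tested as outliers and there was no pair of groups to compare.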

How the results depend on the processing

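The number of genes called between the replicates was 234 of 443 tested as reported. It was 228 of 443 under DESeq2 size factors and 231 of 443 under unscaled totals. With a filter of at least 1 count it was 226 of 767, and with a mean of at least 10 CPM it was 214 of 277. The unstranded counts gave 206 of 418. The share called, 52.8% as reported, thus depends on the filter. The share of the 7 genes in assigned counts fell from 25.7% to 15.2% with Mirlet7g left out of both, and their share of family counts from 95.8% to 92.2%. Leaving out 1 replicate gave 22.7% to 28.7% and 95.5% to 96.1%, and 23864 to 30470 CPM for the median member. Other totals moved the mean levels of Mirlet7b and Mirlet7e by more than their SD of 826 and 716 CPM. Mirlet7b went from 50169 CPM to 46534 over uniquely mapped reads and to 57301 without Mirlet7g in the total. Mirlet7e went from 10182 CPM to 9445 and 11644 under the same changes. Mir7j passed the exact test with a filter at a mean of 10 CPM, at an adjusted p of 0.0389, and its adjusted p ran from 0.0389 to 0.110 over all settings. The direction of each member's ratio was the same in every setting that gave one, and Mirlet7e gave none in the unstranded counts, where its level is 0. DESeq2 size factors shifted all log2 ratios by 0.06. No paired analysis was possible because the series has 1 group. Depth limits Mir7j, with 42 counts in replicate 2.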
